A study of Mus musculus with 16 samples.

Results

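Wnt ligands, their receptors, their secreted antagonists and the proteins that relay their signal were followed across lesions of the mouse spinal cord. The family was taken as every protein-coding gene named Wnt, Fzd, Sfrp or Dkk with a number, together with Frzb, Lrp5, Lrp6, Axin1, Axin2, Apc, Ctnnb1, Lef1, Tcf7, Tcf7l1, Rnf43, Znrf3, Wif1, Prickle1 and Prickle2, that had more than 10 counts in total over 16 RNA-seq libraries. By name there were 52 such genes, and 44 of them met the minimum, out of 46078 genes in the count table. The 8 that did not were Wnt1, Wnt10b, Wnt16, Wnt3a, Wnt8a, Wnt9b, Dkk1 and Dkk4. Nearest to the minimum, Wnt8b and Wnt10a had 14 and 19 counts in total, and Wnt16 and Wnt10b had 6 and 5.

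All mice were C57BL/6 and 8 to 12 weeks old, and every group, controls included, had been demyelinated with lysolecithin, a lipid that dissolves myelin membranes. Exercised mice then had a freely turning running wheel and control mice had a locked one. Lesion tissue labelled day 5 or day 10 was cut from frozen cord by laser microdissection, and its RNA was amplified before sequencing because little was obtained. There were 4 groups of 4 libraries, namely control and exercise at each day. The labels do not say that the libraries of a group came from separate animals, so the p-values below measure the spread between libraries, which may be technical in part.

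Wnt proteins are secreted lipid-modified ligands. In the beta-catenin branch they bring a Frizzled receptor together with Lrp5 or Lrp6, which stops a complex built on Axin and Apc from marking beta-catenin for destruction, so that beta-catenin can act with TCF/LEF proteins on their target genes. In a separate branch, planar polarity proteins such as Prickle relay Frizzled signals to the cytoskeleton. In the central nervous system the pathway is known for guiding the growth of barrier-forming blood vessels and for its influence on the differentiation of oligodendrocyte precursors.

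The libraries held 8125981 to 13930582 counts, of which the members took between 0.103% and 0.159%. Every exercise day 5 library (8125981 to 10930385 counts) was shallower than every control day 5 library (11204380 to 13930582), and the share of counts on the mitochondrial ribosomal gene mt-Rnr2 was higher in all 4 of them (10.91% to 12.94% against 8.05% to 10.28%), so depth and this share moved with exercise at day 5. Their part in the day 5 results was not tested. Among 120 pairs of libraries, none was identical. The tissue carried markers of oligodendrocytes, astrocytes, phagocytes, vessels and fibroblasts, whereas lymphocyte markers were nearly absent, with a summed level of 1.08 to 9.91 CPM (counts per 1000000 counts of the library size after edgeR's TMM scaling). Of the 8 ependymal markers, Tmem212 had no count in any library, and the list summed to 18.5 to 31.4 CPM. Because these are pieces of tissue, fewer cells of a type and less RNA per cell cannot be told apart in any result below.

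Levels were compared between genes only after division by exon length, as CPM per kilobase. Ctnnb1, which encodes beta-catenin, stood first at 109 ± 7.64 CPM per kilobase (SD, n = 16), and its lowest library (94.5) lay above the highest library of any other member. Prickle1, a cytoplasmic planar polarity protein, came second at 46.2 ± 24.4, and its wide range of 18.7 to 80.6 reflects the day difference described below. Dkk3, a divergent member of the Dickkopf family, followed at 20.9 ± 6.03, with a range that overlapped that of Prickle1. Sfrp4 at 10.9 ± 10.2 and Wnt7a at 10.4 ± 2.37 overlapped each other and Dkk3. At the other end, 6 members were too low to be tested in any comparison, the ligands Wnt2b, Wnt6, Wnt8b, Wnt10a and Wnt11 and the antagonist Sfrp2, with means of 0.0221 (Wnt8b) to 0.213 (Sfrp2) CPM per kilobase.

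**Figure D1:**
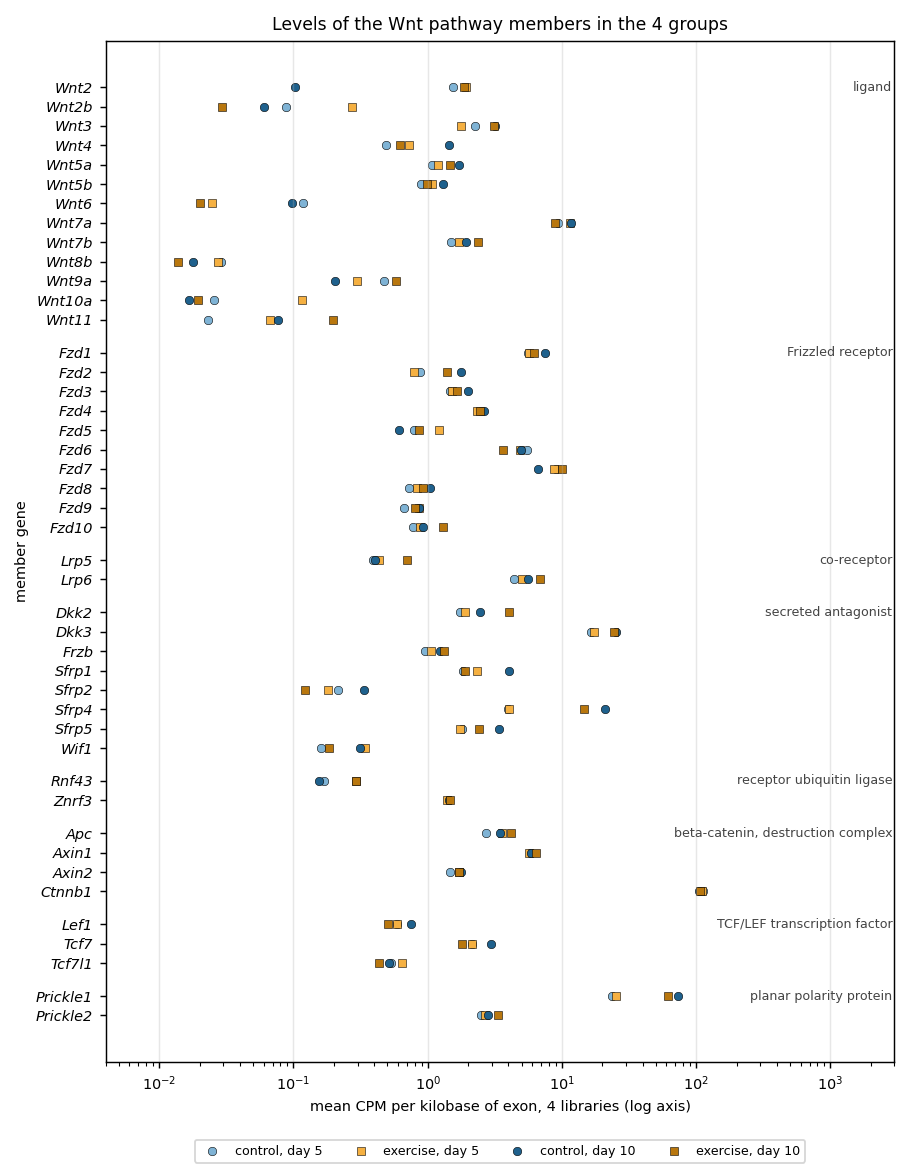
Mean level of each of the 44 members in the 4 groups, in CPM per kilobase of exon on a log axis, each point the mean of 4 libraries and the rows grouped by role. Ctnnb1 lies at 105 to 112 in all 4 groups, Prickle1 moves from about 24 or 25 at day 5 to 62.0 or 73.8 at day 10, and the lowest ligands lie below 0.3.

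Among the 13 ligands, Wnt7a was the highest in each group, with 9.28 ± 1.62 CPM per kilobase in control day 5, 11.6 ± 2.06 in exercise day 5, 11.7 ± 2.34 in control day 10 and 8.83 ± 2.56 in exercise day 10 (SD, n = 4 here and below for group values). Wnt3 followed over all 16 libraries at 2.58 ± 0.959, then Wnt7b at 1.88 ± 0.722, Wnt5a at 1.36 ± 0.471, Wnt2 at 1.36 ± 1.64 and Wnt5b at 1.07 ± 0.303, and these 5 overlapped. Wnt7a and Wnt7b are the ligands that signal to brain endothelium through the co-receptors Reck and Adgra2, and Wnt5a is best known for signalling outside the beta-catenin branch. Wnt4 stood at 0.818 ± 0.466 and Wnt9a at 0.389 ± 0.322.

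Of the 10 Frizzled receptors, Fzd7 (8.63 ± 1.88 CPM per kilobase over 16 libraries), Fzd1 (6.23 ± 1.94) and Fzd6 (4.73 ± 1.44) were the highest. Fzd4, the receptor for norrin in retinal and cerebellar vessels, reached 2.47 ± 0.665. The other 6, Fzd2, Fzd3, Fzd5, Fzd8, Fzd9 and Fzd10, had means of 0.802 (Fzd9) to 1.66 (Fzd3). The co-receptor Lrp6 stood at 5.47 ± 1.15 and its relative Lrp5 at 0.480 ± 0.173, and the highest Lrp5 library (0.962) was below the lowest Lrp6 library (3.67).

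Secreted antagonists other than Dkk3 and Sfrp4 lay lower. Dkk2, which binds Lrp5 and Lrp6, stood at 2.53 ± 1.14 CPM per kilobase, and the frizzled-related proteins Sfrp1, Sfrp5 and Frzb, which bind Wnt ligands, at 2.52 ± 1.14, 2.34 ± 0.916 and 1.15 ± 0.414. Wif1, another Wnt-binding protein, was near the bottom at 0.250 ± 0.227. Inside the cell, the scaffold proteins Axin1 and Apc stood at 5.95 ± 0.760 and 3.49 ± 0.699, and Axin2, a scaffold that is itself induced by beta-catenin, at 1.66 ± 0.568. The transcription factors Tcf7, Lef1 and Tcf7l1 had 2.26 ± 0.867, 0.611 ± 0.180 and 0.532 ± 0.222. Znrf3 and Rnf43, ubiquitin ligases that remove Frizzled from the cell surface, had 1.43 ± 0.208 and 0.227 ± 0.123, and Prickle2 had 2.83 ± 0.701.

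From day 5 to day 10 in control lesions, 3 of the 38 members tested rose and none fell. They were Prickle1, Wnt4 and Sfrp1, one from each of 3 roles. The test was edgeR's quasi-likelihood test over all 15096 genes tested, with Benjamini-Hochberg adjusted p under 0.05 as the threshold for a call. Across all of those genes 12.3% were called, 5.66% higher and 6.64% lower, so the members' 7.89% is near the background. Signs leaned one way, with 29 of 38 members fitted above 0 against 51.2% of all genes, and the members' median log2 fold change was 0.36 against 0.01.

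Prickle1 had 111, 110, 88.0 and 105 CPM in the control day 5 libraries (replicates 1, 2, 5 and 6) and 350, 302, 317 and 313 CPM in the control day 10 libraries (replicates 2, 3, 4 and 5). The lowest day 10 library was thus far above the highest day 5 library. The difference was a log2 fold change of 1.63 (SE 0.18, edgeR adjusted p = 4.09e-05), a 3.1-fold rise.

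Wnt4, a ligand with roles in kidney and reproductive tract development, had 1.51, 1.58, 2.32 and 2.76 CPM at day 5 and 8.51, 5.18, 5.68 and 4.75 CPM at day 10. The ranges did not overlap, although each library held only 19 to 112 Wnt4 counts. Its log2 fold change was 1.56 (SE 0.38, edgeR adjusted p = 0.0105).

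Sfrp1 had 6.92, 9.58, 5.53 and 10.1 CPM in control day 5 and 22.4, 18.5, 16.5 and 13.4 CPM in control day 10. Again the groups did not overlap, and the log2 fold change was 1.14 (SE 0.29, edgeR adjusted p = 0.0154). The call was lost when control day 10 replicate 2 or control day 5 replicate 5 was left out (edgeR adjusted p = 0.0545 and 0.0507).

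**Figure D2:**
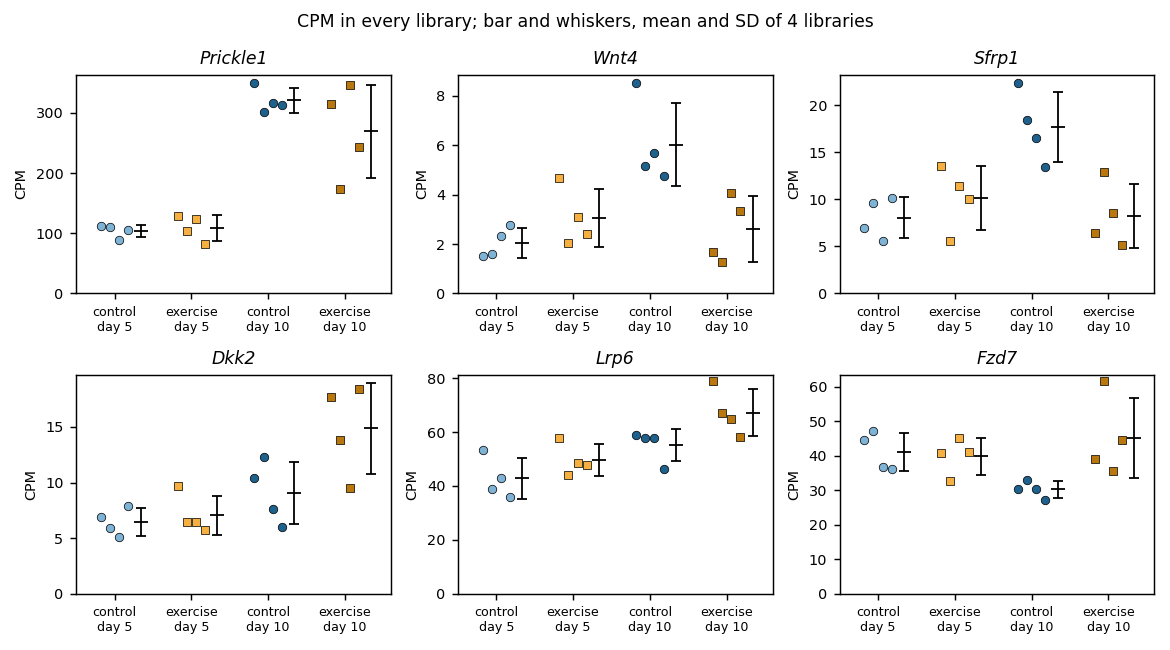
CPM of Prickle1, Wnt4, Sfrp1, Dkk2, Lrp6 and Fzd7 in every library of the 4 groups, with the mean and SD of each group beside its points. Prickle1 is high at day 10 in both arms, whereas the means of Wnt4 and Sfrp1 are highest in control day 10, where each of the 4 libraries lies above all 4 exercise day 10 libraries.

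The other tested members, of these and other roles, did not pass the threshold. Dkk3 (log2 0.63, SE 0.21, edgeR adjusted p = 0.0536), Sfrp5 (0.93, SE 0.34, 0.0804), Apc (0.36, SE 0.13, 0.0765) and Sfrp4 (2.39, SE 0.79, 0.0621) had non-overlapping ranges with day 10 higher, and Fzd7 with day 10 lower (-0.45, SE 0.16, 0.075). With the 3 called members this made 7 of 38 members with a separate, higher range at day 10 (9.33% of all genes) and 1 with a lower one (10.7% of all genes). Fzd2 (1.03, SE 0.37, edgeR adjusted p = 0.0765), Lrp6 (0.37, SE 0.14, 0.0868) and Wnt5a (0.69, SE 0.29, 0.13) also had unadjusted p under 0.05, as did 12 members in total (31.6%, background 26.9%). DESeq2 called 7 members here, adding Dkk3, Fzd2, Sfrp4 and Sfrp5. Fitting these 8 libraries alone called 6, adding Dkk3, Fzd7 and Wnt2, and leaving out control day 5 replicate 1 gave 5, adding Fzd2 and Lrp6. The leading lower members after Fzd7 and Wnt2 were Wnt9a (-1.20, SE 0.65, edgeR adjusted p = 0.249), Fzd5 (-0.37, SE 0.24, 0.336) and Ctnnb1. Without control day 5 replicate 2, its highest library, Wnt9a had -0.28 (edgeR adjusted p = 0.835). Of the 7 tested antagonists, the median log2 fold change was 0.93, the highest of the roles of more than 2 tested genes. That of the 10 Frizzleds was 0.30 and that of the 4 genes of beta-catenin and its destruction complex was 0.15.

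Markers of several cell types moved with the day in control lesions. The 10 fibroblast markers summed to 783 to 3082 CPM at day 5 and 4148 to 5530 CPM at day 10. Of the 10, 3 rose, namely Igf2, Slc6a13 and Pdgfra. Igf2 took 29.6 to 230 CPM of these sums at day 5 and 1182 to 1802 CPM at day 10. Pdgfra is also on the list of oligodendrocyte precursor markers, and Col1a1, Col1a2, Col3a1, Dcn and Lum were not called. For mature oligodendrocytes the sums were 11020 to 15150 and 24290 to 27240 CPM, with 6 of 10 markers higher, and for astrocytes 3301 to 6082 and 6580 to 7913 CPM, with 5 of 10 higher. Monocyte-derived macrophage markers summed to 8089 to 15010 and then 6465 to 7460 CPM, with 6 of 10 lower. Microglia had 4 of 10 markers higher, although their sums were 7841 to 10560 and then 6722 to 9052 CPM. Neurons had 2 of 10 lower, with sums of 338 to 497 and then 166 to 432 CPM. No marker on these lists was at 0 in every library, and their part in the Prickle1, Wnt4 and Sfrp1 results was not tested.

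From day 5 to day 10 in exercised lesions, 3 of the 38 members again rose and none fell, now Prickle1, Dkk2 and Lrp6. Over all genes 10.1% were called, 5.17% higher and 4.90% lower, against the members' 7.89%. The members' median log2 fold change was 0.15 against 0.01 for all genes, and 23 of 38 were fitted above 0 against a background of 50.6%.

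Cell type markers moved with the day in exercised lesions too. Of 10 markers each, 6 of microglia rose, with sums of 6637 to 8969 CPM at day 5 and 7373 to 14920 CPM at day 10, and 6 of monocyte-derived macrophages fell, with sums of 8567 to 14650 and 5451 to 8199 CPM. For endothelium 4 fell, with sums of 257 to 319 and 223 to 297 CPM, and for neurons 3 fell, with sums of 477 to 898 and 128 to 537 CPM. Mature oligodendrocytes had 3 higher and astrocytes 2 higher and 1 lower. No marker on these lists was at 0 in every library, and their part in the Prickle1, Dkk2 and Lrp6 results was not tested.

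Prickle1 had 129, 103, 123 and 81.4 CPM in exercise day 5 (replicates 1, 2, 7 and 12) and 315, 173, 347 and 243 CPM in exercise day 10 (replicates 13, 17, 18 and 19). Although replicate 17 was the lowest, the groups did not overlap. The log2 fold change was 1.30 (SE 0.18, edgeR adjusted p = 2.51e-04).

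Dkk2 had 9.66, 6.46, 6.46 and 5.71 CPM at day 5 and 17.7, 13.9, 9.49 and 18.5 CPM at day 10 in exercised lesions. Replicate 18 at day 10 lay just under the highest day 5 library, so the ranges overlapped slightly. Its log2 fold change was 1.07 (SE 0.26, edgeR adjusted p = 0.0138), and in controls it was 0.49 (SE 0.26, 0.244).

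Lrp6 had 58.0, 44.1, 48.6 and 47.7 CPM at day 5 and 79.1, 67.1, 64.8 and 58.0 CPM at day 10. The highest day 5 and the lowest day 10 library were almost equal. The log2 fold change was 0.44 (SE 0.14, edgeR adjusted p = 0.0476), close to the threshold. Leaving out any one of exercise day 10 replicates 13, 17 and 18 or exercise day 5 replicates 2, 7 and 12 ended the call (edgeR adjusted p between 0.0586 and 0.141), as did testing without the filter on low counts (0.0651) and fitting these 8 libraries alone (0.0725). The control lesions gave a similar log2 fold change of 0.37 (SE 0.14, 0.0868).

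Ranges did not overlap for Prickle1, Lrp5 and Lrp6 only, 7.89% of the 38 members against 14.1% of all genes. Lrp5 had 3.61, 4.18, 5.01 and 4.05 CPM at day 5 and 5.50, 9.37, 7.09 and 5.17 CPM at day 10 (log2 0.69, SE 0.27, edgeR adjusted p = 0.114). Wnt3 (0.82, SE 0.30, 0.092), Dkk3 (0.50, SE 0.21, 0.141), Sfrp4 (1.86, SE 0.79, 0.154), Fzd2 (0.83, SE 0.38, 0.173) and, lower, Fzd5 (-0.50, SE 0.23, 0.187) completed the 9 members with unadjusted p under 0.05 (23.7%, background 25.8%). After Fzd5 the leading lower members were Wnt7a (-0.39, SE 0.20, edgeR adjusted p = 0.225), Fzd6 (-0.42, SE 0.26, 0.33), Tcf7l1 (-0.55, SE 0.43, 0.464) and Sfrp1. Replicate 17 decided 2 further members. Without it Wnt3 (1.01, edgeR adjusted p = 0.031) and, lower, Wnt7a (-0.61, 0.0372) passed the threshold, while Lrp6 did not, giving 4 called members.

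Wnt4 and Sfrp1, which rose in controls, had log2 fold changes of -0.24 (SE 0.38, edgeR adjusted p = 0.745) and -0.30 (SE 0.30, 0.564) in exercised lesions. Day differences in the 2 arms use separate libraries, and the test of their difference is the interaction given further below.

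**Figure D3:**
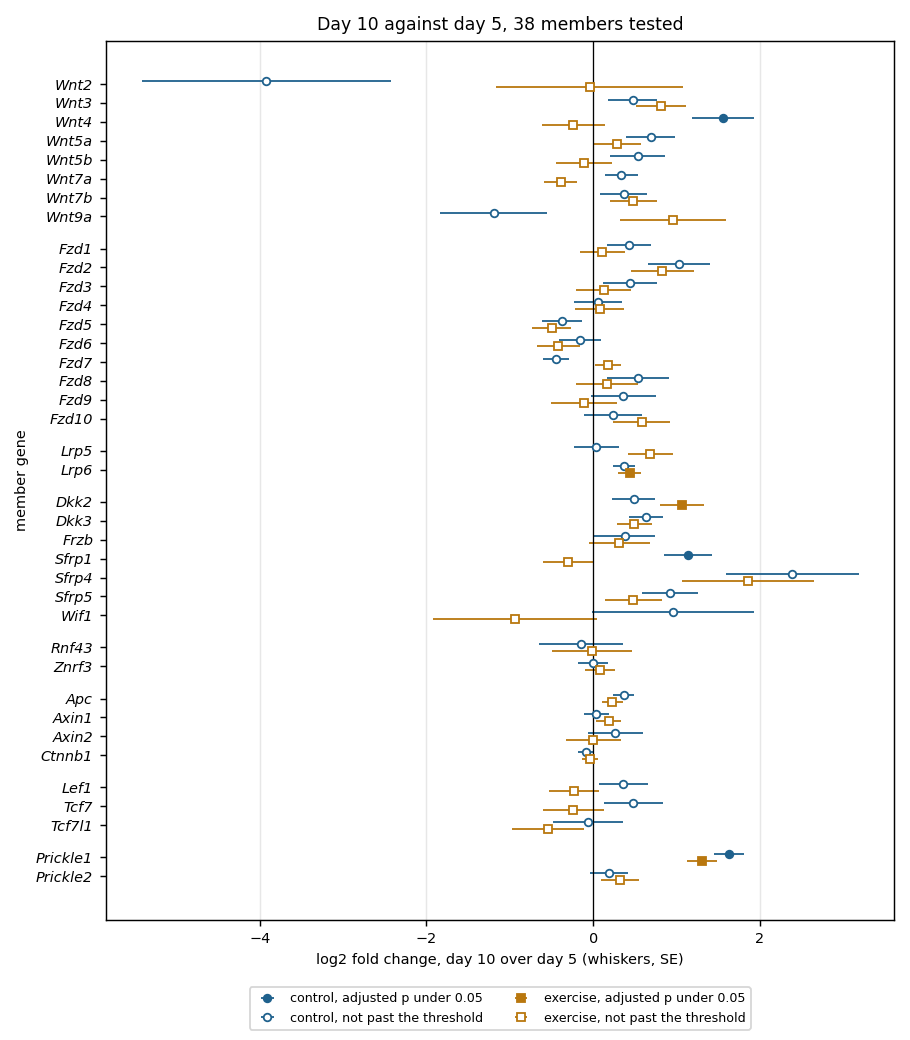
Log2 fold change of day 10 over day 5 for the 38 tested members, with SE as whiskers, in control (circles) and exercised (squares) lesions, and filled symbols for an edgeR adjusted p under 0.05. Prickle1 is filled in both arms at 1.63 and 1.30, Wnt4 and Sfrp1 in controls only, Dkk2 and Lrp6 in exercised lesions only, and Ctnnb1 lies at -0.09 and -0.04.

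Beta-catenin mRNA itself varied little. Ctnnb1 had 540 to 601 CPM in control day 5, 550 to 583 in exercise day 5, 498 to 563 in control day 10 and 482 to 648 in exercise day 10, all overlapping. Its day difference was -0.09 (SE 0.09, edgeR adjusted p = 0.572) in controls and -0.04 (SE 0.09, 0.839) in exercised lesions. Axin2 had day differences of 0.27 (SE 0.33, edgeR adjusted p = 0.654) and -0.00 (SE 0.33, 0.999), and Axin1 of 0.04 (SE 0.15, 0.901) and 0.19 (SE 0.15, 0.47). Lef1, Tcf7 and Tcf7l1 ranged from -0.06 to 0.48 in controls and from -0.55 to -0.23 in exercised lesions, none past the threshold. Znrf3, Rnf43 and Prickle2 had day differences between -0.14 and 0.32 in the 2 arms, with edgeR adjusted p of at least 0.411. The receptors Fzd1 (0.43, SE 0.27, edgeR adjusted p = 0.323) and Fzd9 (0.36, SE 0.39, 0.597), the ligand Wnt7b (0.37, SE 0.28, 0.435) and the antagonists Frzb (0.38, SE 0.37, 0.551) and Wif1 (0.96, SE 0.97, 0.57) were likewise not called in controls. In exercised lesions the same 5 had 0.11, -0.11, 0.48, 0.31 and -0.94, and Wnt5a had 0.29.

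Promoters are shown for the members that rose with the day and for Fzd7, the called members to set side by side and Fzd7 as one that holds a TCF/LEF motif. RefSeq windows of 250 bases directly upstream of a start site (build GRCm38.p6) matched 29 of the 44 members by symbol, with 42 windows. Of the 5 called members, Prickle1, Wnt4 and Dkk2 had an entry. The windows run 5′ to 3′ on the gene's strand. They are chr15:93595903-93596152 and chr15:93519521-93519770 on the minus strand for 2 Prickle1 starts, and chr4:137277385-137277634, chr3:132085042-132085291 and chr1:59481897-59482146 on the plus strand for Wnt4, Dkk2 and Fzd7. Capitals mark a match to the TCF/LEF motif.
Prickle1, first start: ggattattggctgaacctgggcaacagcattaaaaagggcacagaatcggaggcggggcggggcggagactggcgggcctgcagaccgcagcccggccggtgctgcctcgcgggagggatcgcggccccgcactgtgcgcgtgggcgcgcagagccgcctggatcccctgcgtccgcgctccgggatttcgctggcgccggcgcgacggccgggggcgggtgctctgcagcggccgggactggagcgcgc
Prickle1, second start: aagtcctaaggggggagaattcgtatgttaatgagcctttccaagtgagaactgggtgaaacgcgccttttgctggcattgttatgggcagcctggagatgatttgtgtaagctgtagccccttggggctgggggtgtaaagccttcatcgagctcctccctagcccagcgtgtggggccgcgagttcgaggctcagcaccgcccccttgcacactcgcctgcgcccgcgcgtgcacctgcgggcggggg
Wnt4: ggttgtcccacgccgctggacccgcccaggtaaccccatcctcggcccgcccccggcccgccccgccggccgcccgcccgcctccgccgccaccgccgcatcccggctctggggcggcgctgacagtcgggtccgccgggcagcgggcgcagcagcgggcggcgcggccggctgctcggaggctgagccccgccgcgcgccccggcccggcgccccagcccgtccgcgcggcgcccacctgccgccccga
Dkk2: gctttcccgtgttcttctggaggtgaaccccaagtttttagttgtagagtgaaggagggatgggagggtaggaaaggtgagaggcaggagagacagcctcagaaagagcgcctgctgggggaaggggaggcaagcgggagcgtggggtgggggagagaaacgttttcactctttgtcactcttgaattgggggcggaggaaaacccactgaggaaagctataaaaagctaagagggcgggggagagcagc
Fzd7: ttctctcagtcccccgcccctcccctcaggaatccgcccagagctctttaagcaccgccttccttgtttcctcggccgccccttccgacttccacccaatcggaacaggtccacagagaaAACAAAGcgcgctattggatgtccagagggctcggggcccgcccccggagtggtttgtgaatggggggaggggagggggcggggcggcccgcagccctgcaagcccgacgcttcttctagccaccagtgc
The motif was searched as CTTTGAA or CTTTGAT and as CTTTGTA or CTTTGTT on both strands, with no other motif sought. Of the 42 member windows, 5 held a match (11.9%), in Fzd7, Lef1, Prickle2, Wnt11 and Wnt5b, against 14.8% of all 32851 promoter windows of the same length. None of the 4 windows of Prickle1, Wnt4 and Dkk2 held these letters. In Fzd7 the match lay on the opposite strand, 130 bases upstream of the start.

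Running against the locked wheel at day 5 gave no called member out of 38 by edgeR, and no called gene in all (0%). At unadjusted p under 0.05 there were 2 members (5.26%), fewer in share than the 10.0% of all genes, and DESeq2 also called no member. Apc, the scaffold of the destruction complex, had 43.4, 39.9, 40.5 and 46.7 CPM in control and 63.6, 49.5, 54.8 and 57.5 CPM in exercise lesions. All exercise libraries lay above all controls, with a log2 fold change of 0.40 (SE 0.13, edgeR adjusted p = 0.358). In the authors' deposited table the same comparison gave Apc a log2 fold change of 0.40 with an adjusted p of 0.0486, 1 of 271 genes under 0.05 in that table. That table has an adjusted p for 11064 genes, whereas the edgeR adjustment ran over 15096, so the 2 adjusted p rest on unlike gene sets.

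Fzd5 was the other one, with 6.04, 5.92, 4.81 and 5.23 CPM in control and 8.13, 9.63, 8.39 and 7.46 CPM in exercise day 5. The ranges did not overlap and the log2 fold change was 0.61 (SE 0.23, edgeR adjusted p = 0.418). Apc and Fzd5 were the only members whose ranges stayed apart (5.26%, background 7.29%). Next by p among the higher members came Wnt7a (0.32, SE 0.20, edgeR adjusted p = 0.605), Rnf43 (0.78, SE 0.49, 0.611) and Lrp6 (0.21, SE 0.14, 0.619). Among the lower ones came Wnt3 (-0.35, SE 0.30, 0.727), Wnt9a (-0.67, SE 0.63, 0.755), Fzd6 (-0.19, SE 0.25, 0.85), Fzd4 (-0.12, SE 0.29, 0.925) and Fzd2 (-0.14, SE 0.38, 0.934). Of these, the signs of Wnt9a, Fzd6, Fzd2 and Fzd4 turned when control day 5 replicate 1 or 2 was left out. Members' median log2 fold change was 0.14 against 0.01 for all genes, and 27 of 38 lay above 0 (background 51.6%).

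At day 10, exercise against control gave no called member by edgeR either, where 0.192% of all genes were called. Unadjusted p fell under 0.05 for 7 members (18.4%, background 12.8%), and DESeq2 called 2, Sfrp1 and Fzd7. The signs were mixed, with 16 members above 0 and 22 below, and the median was -0.08 against 0.01 for all genes.

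Sfrp1 had 22.4, 18.5, 16.5 and 13.4 CPM in control day 10 and 6.43, 12.9, 8.51 and 5.17 CPM in exercise day 10. The highest exercise library, replicate 17, was just below the lowest control. The log2 fold change was -1.10 (SE 0.29, edgeR adjusted p = 0.139), and DESeq2 gave an adjusted p of 0.0268. In the authors' deposited table, which has columns for 7 of these 8 libraries and lacks exercise replicate 17, Sfrp1 had a log2 fold change of -1.41 and an adjusted p of 1.11e-04. It was the only member of 44 listed among the 179 genes under 0.05, of 15674 with an adjusted p there. Leaving out replicate 17 gave -1.39 (SE 0.29, edgeR adjusted p = 0.0738).

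Wnt4 had 8.51, 5.18, 5.68 and 4.75 CPM in control day 10 and 1.68, 1.27, 4.08 and 3.35 CPM in exercise day 10. Each control library was above each exercise library (log2 -1.21, SE 0.37, edgeR adjusted p = 0.187). Fzd7, one of the most abundant Frizzleds, had 30.5, 33.1, 30.3 and 27.2 CPM in control and 39.0, 61.8, 35.5 and 44.5 CPM in exercise lesions. Its ranges did not overlap in the opposite direction, with a log2 fold change of 0.58 (SE 0.16, edgeR adjusted p = 0.151; DESeq2 adjusted p = 0.0458). Without replicate 17, its highest library, the value was 0.39 (SE 0.14, edgeR adjusted p = 0.318).

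Lrp5 had 2.81, 4.18, 4.65 and 4.01 CPM in control and 5.50, 9.37, 7.09 and 5.17 CPM in exercise day 10, again with no overlap (0.80, SE 0.27, edgeR adjusted p = 0.233). These 4, Sfrp1, Wnt4, Fzd7 and Lrp5, were the members with non-overlapping ranges (10.5%, background 5.88%). Dkk2 (0.71, SE 0.26, edgeR adjusted p = 0.261), Wnt9a (1.48, SE 0.65, 0.35) and Wnt2 (4.22, SE 1.49, 0.266) were the other members at unadjusted p under 0.05. Lower but further from the threshold were Wnt7a (-0.41, SE 0.20, 0.396), Tcf7 (-0.72, SE 0.36, 0.416) and Lef1 (-0.58, SE 0.29, 0.423). All 3 TCF/LEF factors and 5 of the 7 tested antagonists were fitted below 0, without one passing the threshold. So were 22 of the 38 members as a whole, where 52.1% of all genes were fitted above 0. Axin1, Axin2, Ctnnb1, Znrf3, Prickle1, Prickle2, Wnt5a, Wnt7b, Fzd1, Fzd9, Frzb, Dkk3 and Tcf7l1 had exercise differences between -0.29 (Fzd1) and 0.31 (Wnt7b) at day 10, and between -0.07 (Znrf3) and 0.38 (Fzd9) at day 5.

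Some vascular markers and the fibroblast marker Igf2 moved beside these values at day 10. The 10 pericyte and smooth muscle markers summed to 379 to 408 CPM in control and 265 to 324 CPM in exercise lesions, without overlap, and Vtn alone of them fell (log2 -1.13, edgeR adjusted p = 0.048). The 10 endothelial markers summed to 293 to 320 and 223 to 297 CPM, with Slco1a4 lower (-0.86, 0.0401). Fibroblast markers summed to 4148 to 5530 and 1683 to 5003 CPM, and among these 10 only Igf2 was called, lower (-3.04, 0.048). Igf2 took 1182 to 1802 CPM of the control sums and 37.0 to 299 CPM of the exercise sums. The collagen genes Col1a1, Col1a2 and Col3a1 did not fall together. Each lay below all controls in exercise replicates 13 and 17 and above all controls in replicates 18 and 19. Lum and Slc6a13 were not called but were lower in every exercise library than in any control. Lum had 132.5 to 239.9 against 258.5 to 318.3 CPM, and Slc6a13 0.0976 to 2.13 against 3.11 to 5.27 CPM. The ranges of Dcn, Pdgfra, Aldh1a2 and Ogn overlapped, and the median log2 fold change of the 10 markers was -0.54. Called genes over the whole comparison went from 29 to between 0 and 133 with one library left out, the last without exercise replicate 18. No marker of these 3 lists was at 0 in every library, and their part in the Sfrp1, Wnt4, Fzd7 and Lrp5 values was not tested.

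**Figure D4:**
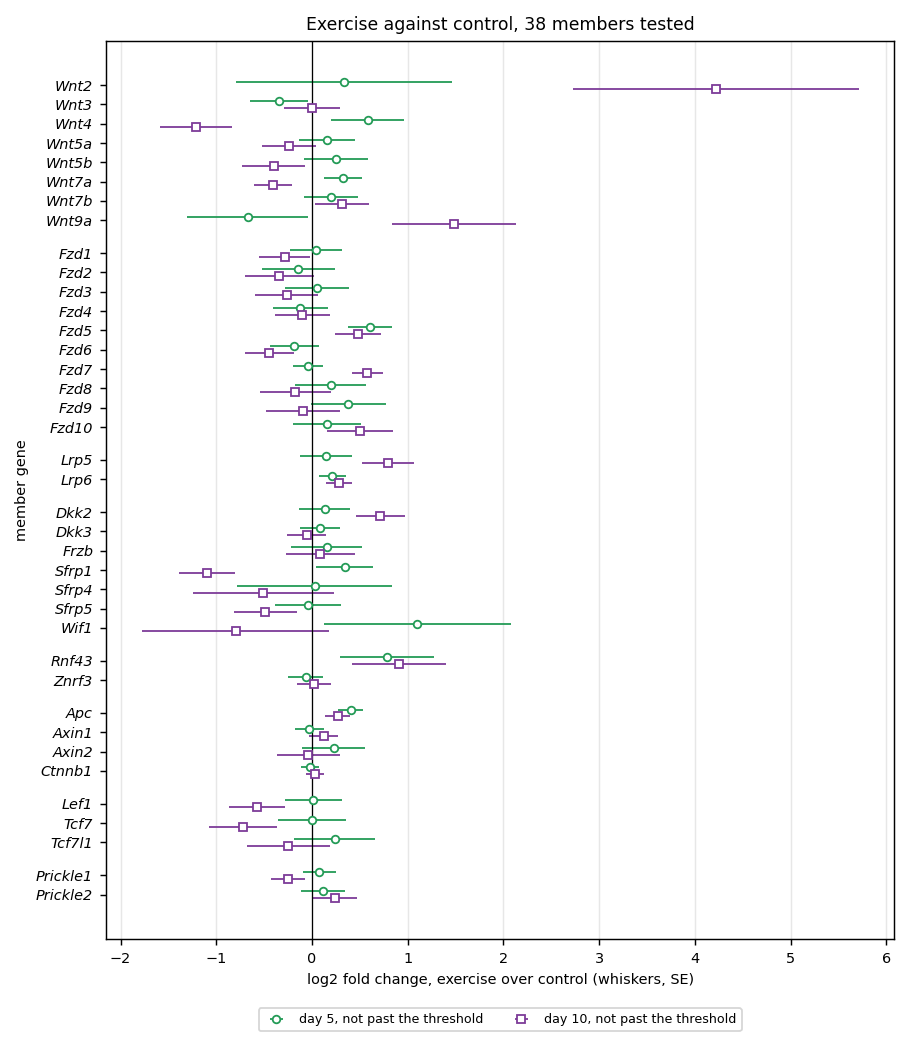
Log2 fold change of exercise over control for the 38 tested members, with SE as whiskers, at day 5 (circles) and day 10 (squares). All symbols are open because no edgeR adjusted p was under 0.05, Apc and Fzd5 lie at 0.40 and 0.61 at day 5, and Sfrp1 and Wnt4 lie at -1.10 and -1.21 at day 10 but at 0.34 and 0.58 at day 5.

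Averaged over both days, exercise gave no called member by edgeR (background 0.146% of genes), 8 at unadjusted p under 0.05 (21.1%, background 13.6%) and 1 by DESeq2. All 8 were higher with exercise. Apc had a mean log2 fold change of 0.34 (SE 0.09, edgeR adjusted p = 0.122; DESeq2 adjusted p = 0.0391), and Fzd5 had 0.54 (SE 0.17, edgeR adjusted p = 0.163). The co-receptors followed, with 0.25 (SE 0.10, edgeR adjusted p = 0.26) for Lrp6 and 0.47 (SE 0.19, 0.287) for Lrp5. Rnf43 (0.85, SE 0.35, 0.291), Fzd7 (0.27, SE 0.11, 0.299), Wnt2 (2.28, SE 0.94, 0.302) and Dkk2 (0.42, SE 0.18, 0.32) were the rest. Among the lower members Sfrp1 (-0.38, SE 0.21, 0.435), Fzd6 (-0.32, SE 0.18, 0.461), Tcf7 (-0.36, SE 0.25, 0.56), Lef1 (-0.28, SE 0.21, 0.582) and Wnt4 (-0.32, SE 0.27, 0.634) came first. Ctnnb1 had 0.01 with a 95% interval of -0.13 to 0.15.

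Whether the exercise difference itself changed between the days was tested as an interaction. No member was called by edgeR or by DESeq2, and edgeR called no gene at all (0%), with 5 members at unadjusted p under 0.05 (13.2%, background 9.11%). Sfrp1 had the smallest p, with 0.34 (SE 0.29) at day 5, -1.10 at day 10 and a difference of -1.44 (SE 0.42, edgeR adjusted p = 0.431). Wnt4 was next, with 0.58 (SE 0.38) at day 5, -1.21 at day 10 and a difference of -1.80 (SE 0.53, edgeR adjusted p = 0.452). Wnt7a (-0.73, SE 0.28, 0.504), Fzd7 (0.62, SE 0.22, 0.504) and Wnt9a (2.16, SE 0.91, 0.521) made up the 5. Behind them came Wnt2 (3.88, SE 1.88, edgeR adjusted p = 0.555), Lrp5 (0.65, SE 0.38, 0.603), Dkk2 (0.58, SE 0.37, 0.633), Lef1 (-0.59, SE 0.41, 0.667) and Tcf7 (-0.72, SE 0.51, 0.67). The unlike day courses of Wnt4 and Sfrp1 in the 2 arms are therefore not shown to differ by this test.

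Spread between libraries of one group was wider for the members than for genes at large. The biological coefficient of variation estimated by edgeR had a median of 0.282 over the 38 members and 0.209 over all genes tested. It was lowest for Ctnnb1 (0.104), Apc (0.135), Lrp6 (0.140) and Axin1 (0.149), and highest for Wnt2 (1.27), Wif1 (0.853), Sfrp4 (0.760) and Wnt9a (0.567). The medians were not matched for expression level. In total over the libraries, the former had 99500, 9787, 9568 and 4065 counts and the latter 547, 109, 3476 and 231. The part of level in the wider spread was not tested.

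Wnt2, a ligand of the beta-catenin branch, went from no count to 121 counts between libraries. It had 4.45, 6.998, 1.69 and 0.727 CPM in control day 5 and 9.12, 0.253, 7.91 and 0 CPM in exercise day 5. In control day 10 it had 0, 0.0909, 0.838 and 0 CPM, 10 counts in the 4 libraries together, and in exercise day 10 it had 0.838, 0.781, 10.7 and 4.57 CPM. High and low libraries thus occurred side by side in 3 groups, and only control day 10 was low throughout. The day difference in controls was -3.92 (SE 1.49, edgeR adjusted p = 0.102), and it was called when those 8 libraries were fitted alone (0.0249).

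Sfrp4, a Wnt-binding antagonist found in connective tissue, had 10.9, 12.9, 3.92 and 0.363 CPM in control day 5 and 7.403, 2.53, 11.3 and 6.998 CPM in exercise day 5. It had 40.8, 50.2, 21.97 and 34.1 CPM in control day 10 and 8.48, 3.90, 51.1 and 39.8 CPM in exercise day 10. Exercise day 10 replicates 13 and 17 thus lay in the range of day 5, replicate 19 in that of control day 10, and replicate 18 just above the highest control day 10 library. The summed fibroblast markers divided the same 4 libraries, with 1683 and 1817 CPM in replicates 13 and 17 and 5003 and 4228 CPM in replicates 18 and 19. Col1a2 was the largest part of these sums, at 675, 881, 2550 and 2151 CPM in that order. Of the 10 markers, only Pdgfra and Aldh1a2 did not divide these libraries in this way. In control day 5 the lowest sum, 783 CPM in replicate 6, fell in the library with the lowest Sfrp4. The largest sum there was in replicate 1, whereas Sfrp4 was highest in replicate 2. In exercise day 5 the largest sum, 3009 CPM in replicate 7, fell in the library with the highest Sfrp4. The lowest sum, 1724 CPM, was in replicate 12, whereas Sfrp4 was lowest in replicate 2. Neither end matched in control day 10. The largest sum, 5530 CPM, was in replicate 2, whereas Sfrp4 was highest in replicate 3. The lowest sum, 4148 CPM, was in replicate 5, whereas Sfrp4 was lowest in replicate 4.

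Wnt9a and Wnt2 were also higher in exercise day 10 replicates 18 and 19 (Wnt9a 3.55 and 2.54 CPM, against 0.838 and 0.781 in replicates 13 and 17). In control day 5 the fibroblast sums were 3082 and 2959 CPM in replicates 1 and 2 and 1815 and 783 CPM in replicates 5 and 6. Wnt2 was again higher in the first pair, and Wnt9a had 1.27 and 3.83 CPM there against 0.713 and 0.509 CPM. In exercise day 5 the sums were 2091, 1898, 3009 and 1724 CPM in replicates 1, 2, 7 and 12, and Wnt2 was higher in replicates 1 and 7, while Wnt9a had 1.72, 0.887, 0.868 and 0.460 CPM. In control day 10, however, where the fibroblast sums were 4148 to 5530 CPM, Wnt9a had 0.491 to 0.818 CPM and Wnt2 at most 0.838 CPM. Igf2 alone made up 1182 to 1802 CPM of those sums. Within 3 of the 4 groups, the libraries with the larger fibroblast sums thus had more Wnt2, and the group with large sums throughout had little. Fzd2 was split in the same way as Sfrp4, at 2.98 and 3.32 CPM in replicates 13 and 17 and 7.54 and 6.70 CPM in replicates 18 and 19. These splits were seen after the values were known, and the part of tissue content in them was not tested.

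**Figure D5:**
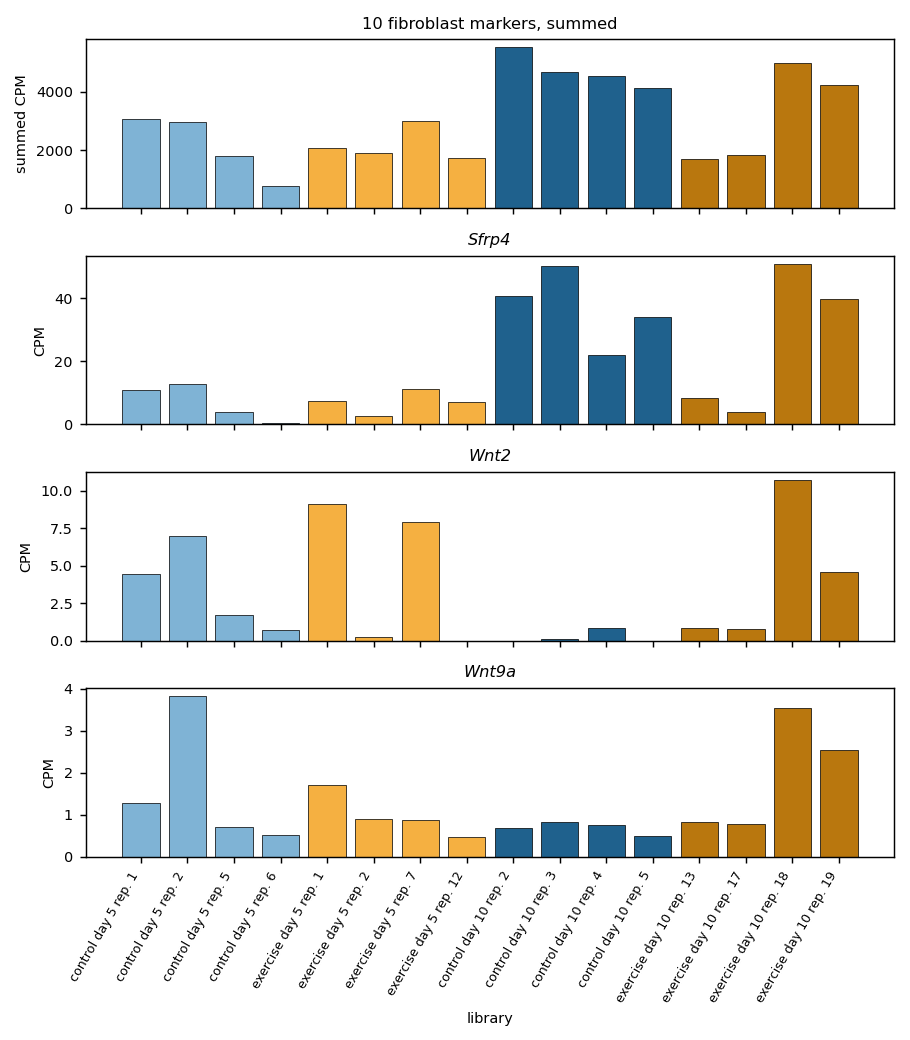
Summed CPM of 10 fibroblast markers (top) and CPM of Sfrp4, Wnt2 and Wnt9a in each of the 16 libraries, coloured by group. Sfrp4 is high in the 4 control day 10 libraries and in exercise day 10 replicates 18 and 19, where the marker sum is between 4148 and 5530 CPM, while Wnt2 and Wnt9a are low in control day 10.

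Other genes of the pathway were read from 7 lists that do not overlap with the members. Of their 78 different tested genes, 12 (15.4%) were called from day 5 to day 10 in controls, against 12.3% of all genes, and 7 (8.97%) in exercised lesions, against 10.1%, so both shares are near the background. In control lesions from day 5 to day 10, 4 of 21 cytoplasmic transducers rose and none fell, with a median log2 fold change of 0.15. They were Dact1 (2.18, edgeR adjusted p = 8.07e-04) and Nkd2 (1.96, 0.00453), which both bind Dishevelled, Csnk1e (0.46, 0.0135), a casein kinase that acts on Dishevelled, and Nkd1 (1.22, 0.0224), a feedback inhibitor. Nkd2 stood at 7.05 ± 2.36 CPM in control day 5 and 27.4 ± 8.602 CPM in control day 10. The formins Daam1 (0.80, edgeR adjusted p = 9.79e-04) and Daam2 (1.16, 0.00796) rose among 9 tested planar polarity genes. Single genes rose in 3 other lists, Reck (1.36, edgeR adjusted p = 0.0185) of 13 further receptors, Tle1 (0.85, 0.00844), a corepressor, of 13 nuclear partners, and Sostdc1 (4.21, 0.00927), an extracellular Wnt and BMP modulator, of 6 R-spondins and modulators. With each library of this comparison left out in turn, 7 of the 12 calls held in all 8 fits. They were Dact1, Nkd2, Daam1, Daam2, Tle1, Sostdc1 and Ccnd1. Csnk1e was lost without control day 5 replicate 1 or control day 10 replicate 4, and Reck and Nkd1 without control day 5 replicate 2 or 6 or control day 10 replicate 3.

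Known target genes of beta-catenin did not move one way in controls. Of 17 tested, Nkd1 rose and Ccnd1 (-0.64, edgeR adjusted p = 0.00694), Myc (-0.73, 0.0215) and Id2 (-0.38, 0.0291) fell, and the median of the list was 0.03. The Myc call was lost without control day 5 replicate 6 or control day 10 replicate 2, and the Id2 call in 6 of 8 fits, holding only without control day 5 replicate 6 or control day 10 replicate 4. Ccnd1 and Myc drive the cell cycle and answer to many other pathways. In exercised lesions none of the 17 rose and 2 fell, Id2 (-0.51, edgeR adjusted p = 0.00651) and Cd44 (-0.43, 0.0346), with a median of -0.03. Here Id2 held in all 8 fits with one library left out, and Cd44 was lost without exercise day 5 replicate 2 or 7 or exercise day 10 replicate 13 or 19 and with these 8 libraries fitted alone (edgeR adjusted p = 0.0999).

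In exercised lesions over the days, Csnk1e (0.87, edgeR adjusted p = 2.43e-04) and Nkd2 (1.85, 0.00965) rose again, as did Daam1 (0.85, 8.88e-04), and all 3 held with any one library left out. The coactivator Crebbp (0.33, edgeR adjusted p = 0.0368) held in 1 of 8 such fits, without exercise day 10 replicate 17, and was lost without the filter on low counts (0.0578) and with the 8 libraries alone (0.086). Rspo2, an R-spondin that stabilises Frizzled at the membrane, fell (-2.55, edgeR adjusted p = 0.0226), from 7.09 ± 3.57 to 1.19 ± 1.38 CPM, a call that was lost without exercise day 5 replicate 12 or exercise day 10 replicate 18 or 19. Porcn and Wls, needed for Wnt secretion, passed the threshold in no comparison. In the exercise comparisons, the 7 lists, 78 different genes tested, gave no called gene by edgeR at day 5 (6 at unadjusted p under 0.05, 7.69% against 10.0% of all genes), at day 10 (13, 16.7% against 12.8%) or in the interaction (6, 7.69% against 9.11%), and 1 for the mean of both days. The gene called by edgeR was Cldn5, a tight junction protein of brain endothelium, which fell (-0.77, SE 0.15, edgeR adjusted p = 0.0484). It was counted among the targets and is also on the list of 10 endothelial markers. Cldn5 had 10.8 ± 1.89 and 11.6 ± 1.20 CPM in the controls of day 5 and day 10 and 7.63 ± 2.02 and 5.67 ± 1.03 CPM in the exercised lesions. The 22 genes called for that mean, over all genes, became 0 to 100 with one library left out. Cldn5 kept a fall of between -0.86 and -0.72 there, but its call was lost with 12 of the 16 libraries (edgeR adjusted p from 0.0289 to 0.127) and held only without control day 5 replicate 6, exercise day 5 replicate 2 or exercise day 10 replicate 17 or 18. Without the filter on low counts its edgeR adjusted p was 0.0535. DESeq2 called no gene of these lists at day 5 or in the interaction, Cldn5 at day 10, and 2 genes for the mean, Cldn5 and the corepressor Ctbp1.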

How the data were processed

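RNA-seq of microdissected lesions was analysed from the deposited gene counts, whole reads per Ensembl gene (GRCm38) made by the authors with featureCounts 1.5.0-p1 in its stranded mode, per the file headers. The submitters' processing notes also name FastQC 0.11.4, TopHat2 2.0.10, Bowtie 1.1.2 and DESeq2 1.12.4. The authors' deposited comparison tables give log2 fold changes with p-values for exercise at each day. Gene lengths are those in the deposited count table, and symbols and biotypes come from GENCODE mouse release 21 (45229 of 46078 genes matched). The members and lists were chosen with earlier results of these data known.

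Totals of 8125981 to 13930582 counts per library entered edgeR 4.0.16 (R 4.3.3, limma 3.58.1): filterByExpr with a minimum count of 10 and a minimum total of 15, which left 15096 genes, TMM scaling, 1 mean per group and a robust quasi-likelihood fit with 12 residual degrees of freedom, read out for 6 contrasts with Benjamini-Hochberg adjustment over all genes tested. CPM is the count per 1000000 counts of TMM-scaled library size. The fit was tested on simulated counts. Statistics are given for every called member, for the 5 higher and 5 lower members of each comparison with the smallest p, and for a fixed set of ligands, receptors, antagonists and transducers. From the other lists only called genes are named. Comparisons within a day and between days share libraries. Alternatives were DESeq2 1.42.0, its size factors in edgeR, no filter, the 8 libraries of a contrast alone, leaving out each library, and a replicate block. Figures used matplotlib 3.10.9.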

Additional observations from a re-analysis of the deposited data

Results flagged for a closer look

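In 2 cases 1 library stood apart from the other 3 of its group by Dixon's ratio of the gap to the range of log2 CPM, above its critical value for 4 values. Frzb in control day 10 had 2.70 CPM in replicate 5 and 4.27 to 4.65 CPM in the others (ratio 0.841). Lrp6 in control day 10 had 46.4 CPM in the same replicate and 57.8 to 58.9 CPM in the others (ratio 0.924). Over the 152 member and group combinations examined, chance flags about 1 in 20, or 7.6, so 2 is below that number.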

How the results depend on the processing

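The count of called members from day 5 to day 10 in controls was 3, and it became 7 with DESeq2, 6 with only the 8 libraries compared, 5 without control day 5 replicate 1, and 2 to 5 when leaving out one library at a time. In exercised lesions it was 3, with a leave-one-out range of 2 to 4. The exercise count at day 10 became 2 and that for the mean of both days 1 with DESeq2. Over all genes, DESeq2 called 75 for exercise at day 5, 218 at day 10, 320 for the average of the days and 9 for the interaction, against 0, 29, 22 and 0 by edgeR. With one library left out, edgeR's range was 0 to 133 at day 10 and 0 to 100 for the average. The 1858 genes of the control days became 333 under the replicate block, and the 1520 of the exercise days 856 with only their 8 libraries. Prickle1 kept its call in both arms and Wnt4 in controls under each of these, but with a replicate block on the shared numbers 2 and 5 (4 libraries), 3 members were called, Prickle1, Sfrp4 and Wnt2, and Wnt4 (adjusted p = 0.121) and Sfrp1 (0.0611) were not. Of the 12 other pathway genes called in controls, 4 were called under that block, Ccnd1, Dact1, Nkd2 and Sostdc1. At day 5 the replicate block on numbers 1 and 2 gave 0 called members. Deviations of same-numbered libraries over the genes tested correlated at -0.069 to 0.069. No pairs of unlike number were set beside them, so this does not settle whether the numbers mark pairs. Of 640 gene results with one library left out, 635 kept their direction. The 5 that turned were log2 differences of exercise at day 5, without control day 5 replicate 1 for Fzd2 (leave-one-out range -0.345 to 0.152), Fzd4 (0.018) and Fzd6 (-0.394 to 0.07), and without replicate 2 for Fzd4 (-0.352 to 0.029) and Wnt9a (-1.093 to 0.246). The cause was not tested. Depth limits the 6 untested members, whose lowest adjusted p without the filter was 0.197.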
